A study of Rattus norvegicus with 6 samples.

Results

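The genes described here encode the signalling proteins through which the GnRH receptor acts inside the cell. They are 32 genes listed by name for their place in the pathway, with earlier results of these data known. All 32 were measured, by 66 of the 31042 probe sets on the array. Each gene is represented by its probe set with the highest mean log2 value among those that the array annotation assigns to that gene alone. The whole array named 14217 genes in this way. The genes fall into 8 roles: phospholipases, calcium release channels, protein kinase C, tyrosine kinases, the MAP kinase cascade, calmodulin with its kinases, cAMP, and transcription effectors.

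RNA came from rat pituitaries kept as organ cultures, 3 under control conditions and 3 given 10 nM GnRH, with 1 single-colour array per sample. The rats' strain, sex and age, the time under GnRH and the control medium were not given in the sources used here. No label says whether the samples of a group came from separate cultures, so the p-values reflect only how far these arrays differ. That spread could be technical among the GnRH arrays, while the controls also differed in sex-linked transcripts, as given below. The question of the comparison was whether the transcripts of the receptor's own signalling machinery differed between cultures with and without its hormone.

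The GnRH receptor sits on gonadotropes, the source of LH and FSH, and couples mainly to G proteins of the Gq/11 family. These activate phospholipase C beta, whose products release calcium through inositol trisphosphate receptors and switch on protein kinase C. Calcium, protein kinase C and cAMP then feed into the MAP kinases ERK, JNK and p38 and into transcription factors that act on the gonadotropin subunit genes. Gonadotropes are a minority of pituitary cells and most of these signalling proteins are made by every cell type. In RNA from the whole gland, fewer cells of a type and less RNA per cell cannot be told apart.

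Control 3 stood apart from the other controls. Its log2 values correlated over probe sets (which are no independent replicates) at a Pearson r of 0.983 and 0.986 with controls 1 and 2, against 0.994 between those, and of 0.988 to 0.991 with the GnRH arrays. The probe set with the largest difference for Xist, the RNA that silences an X chromosome in female cells, read 3.91 and 3.66 in controls 1 and 2, 9.77 in control 3 and 9.16 to 9.73 with GnRH. Eif2s3y, a Y-linked gene, had the reverse pattern, at 6.48 and 6.56 in controls 1 and 2, 2.76 in control 3 and 2.06 to 2.42 with GnRH. Controls 1 and 2 thus had the pattern of male tissue in both transcripts and the other 4 arrays that of female tissue. In a contrast of the GnRH arrays with controls 1 and 2, hormone and sex cannot be told apart. The comparison with all 3 controls carries the same limit in part, since 2 of its 3 controls are these arrays. The pituitary origin was plain in the hormone genes, such as growth hormone Gh1 at 14.09 to 14.25 on the log2 scale against array medians of 6.01 to 6.07. Of 40 measured marker genes for 11 pituitary cell classes, Gnrhr, Nr5a1 and Drd2 passed the test and 37 did not. The summed linear level of the posterior lobe and glia markers was 573 to 895 in controls and 259 to 500 with GnRH. That of the folliculostellate and stem-like markers was 2308 to 3239 and 3317 to 3928, of the lactotrope markers 14750 to 18397 and 18618 to 19312, and of the somatotrope markers 19174 to 19869 and 17927 to 18918. The members of a list did not always move together. Of the 5 folliculostellate and stem-like markers, Gpx3 had a log2 difference of 0.72 and carried the sum, while Cdh1 had -0.37 with no overlap in the other direction, and S100b, Sox2 and Aldh1a1 overlapped between the groups (0.15, 0.018 and -0.10). In the somatotrope list Gh1 carried the sum at -0.080, while Pou1f1 had 0.58, also with no overlap. The groups overlapped in the other 7 lists. The part of these levels in the values below was not tested.

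None of the 32 signalling genes passed the test between GnRH and control cultures. By limma with Benjamini-Hochberg adjustment over all probe sets, 0 were higher and 0 lower at an adjusted p under 0.05, where 0.464% of all probe sets passed (0.422% higher and 0.0419% lower). The smallest adjusted p among them was 0.217, for Src. At an unadjusted p under 0.05 there were 4, Src, Mapk14 and Map2k2 with higher and Prkcd with lower values under GnRH. That is 12.5% of the genes against 12.3% of all probe sets and 13.2% of all named genes, so their number lay at the background. The median log2 fold change (mean of the GnRH arrays minus mean of the controls) was -0.041 over the 32 genes and -0.0089 over all named genes, with 12 of the 32 above 0. By contrast the receptor itself, on the brighter of its probe sets, was higher by 1.12 ± 0.17 (SE) on the log2 scale (limma adjusted p = 0.0215), but this call was not stable. Against control 3 alone, the control with Xist as high as in the GnRH arrays, the difference was 0.89 and did not pass (limma adjusted p = 0.121). The call was also lost with 16 added to each value (limma adjusted p = 0.0637) and without control 1, control 2, GnRH 2 or GnRH 3, where the limma adjusted p reached 0.094. Leaving out arrays also lowers the power of the test. The size of the Gnrhr difference ran from 0.89 to 1.26 over the 15 alternatives tried, always above 0.

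The 95% intervals give the range of change that these arrays leave for each transcript. SEs of the 32 log2 fold changes ran from 0.081 (Calm2) to 0.23 (Prkcb). The interval of each, from the variance limma estimated with all probe sets and not adjusted for the number of genes, lay inside a 2-fold change either way for all 32 genes. For 29 it lay inside 1.5-fold. The exceptions were Prkcb, Camk2d and Map2k6, whose intervals reached 0.76, 0.60 and -0.65 on the log2 scale. Such narrow intervals are the rule on these arrays, since 98.6% of all named genes lay inside 2-fold and 91.4% inside 1.5-fold. The intervals rest on 3 arrays a group and take control 3 as an ordinary replicate. They describe the difference between these groups, in which 2 of the 3 controls had the male pattern and all GnRH arrays the female. They thus set no bound on the response to the hormone alone.

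**Figure D1:**
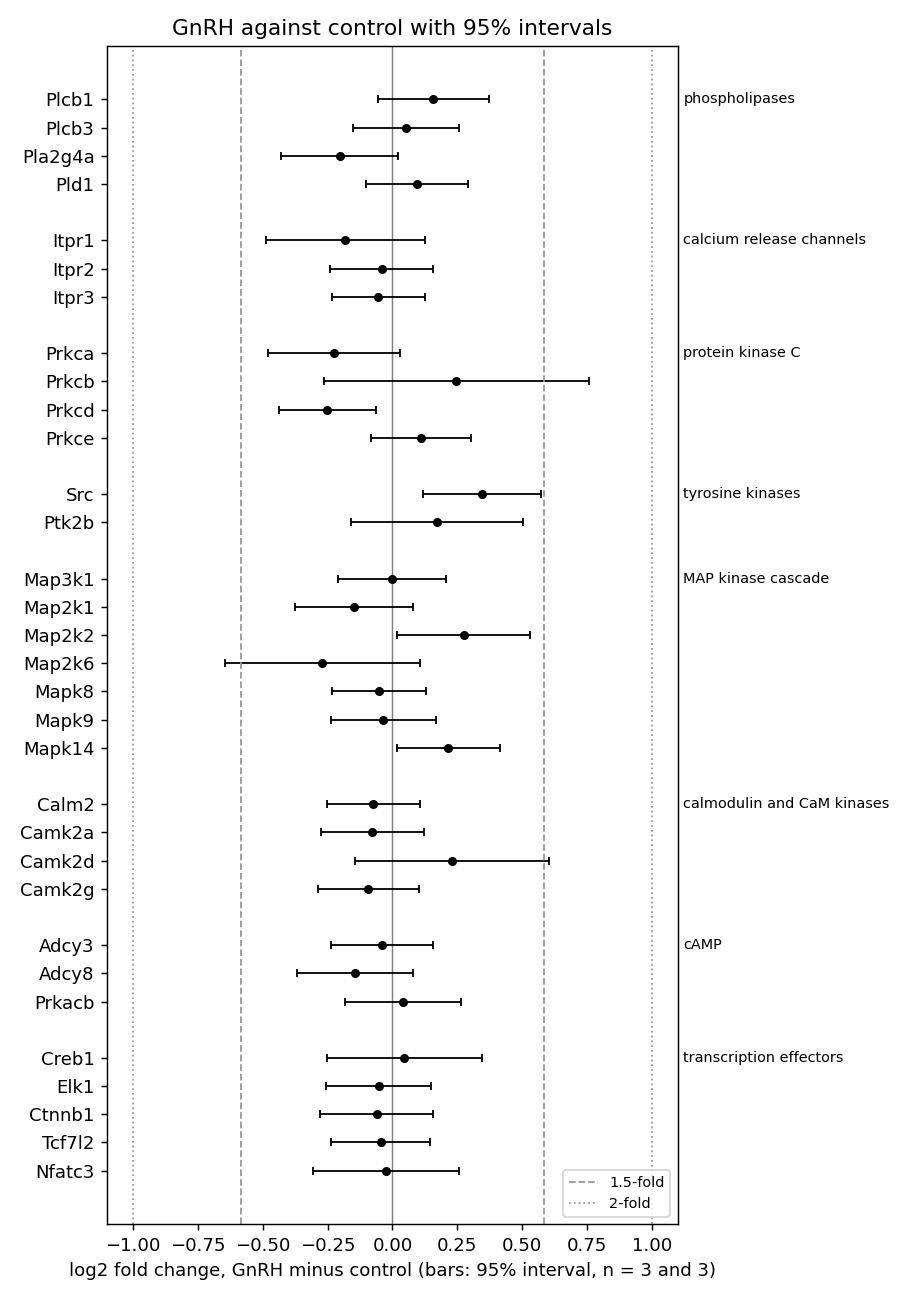
Log2 fold change of the 32 signalling genes (x axis, mean of 3 GnRH arrays minus mean of 3 controls), grouped by role, with points for the estimate and bars for its 95% interval; dashed lines mark 1.5-fold and dotted lines 2-fold. All bars end inside 2-fold, and those of Src, Map2k2, Mapk14 and Prkcd do not cross 0.

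The phospholipases, at the head of the pathway, showed 0 calls among 4 genes. Plcb1, encoding a phospholipase C beta isoform driven by Gq, read 6.45, 6.20 and 6.31 in controls and 6.56, 6.39 and 6.50 with GnRH. The groups overlapped through control 1, with a difference of 0.16 ± 0.10 (limma adjusted p = 0.537). Plcb3, another such isoform, had 0.053 (-0.15 to 0.26) and Pld1, which makes phosphatidic acid, 0.095 (-0.10 to 0.29), as log2 differences with 95% intervals. Pla2g4a, the cytosolic phospholipase that frees arachidonic acid, read 4.78, 4.79 and 4.55 in controls and 4.39, 4.62 and 4.51 with GnRH. Control 3 lay among the GnRH arrays, and the difference was -0.20 ± 0.10 (limma adjusted p = 0.459).

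The inositol trisphosphate receptors are the channels that release calcium from the endoplasmic reticulum. All 3 had log2 differences below 0 and none passed. Itpr1 read 7.54, 7.34 and 7.23 in controls and 6.87, 7.31 and 7.38 with GnRH. GnRH 1 alone lay clearly below the rest, and the difference was -0.18 ± 0.14 (limma adjusted p = 0.629). Itpr2 had -0.042 (-0.24 to 0.16) and Itpr3 -0.054 (-0.23 to 0.13), with overlapping groups.

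The protein kinase C genes pointed in different directions and 0 of 4 passed. Prkcd, encoding the diacylglycerol-dependent, calcium-independent delta isoform, read 7.45, 7.36 and 7.44 in controls and 7.19, 7.21 and 7.11 with GnRH. Every GnRH array lay below every control. The difference was -0.25 ± 0.084, or 1.19-fold lower, with an interval from -0.44 to -0.065 (limma adjusted p = 0.273). It was -0.24 against controls 1 and 2 and -0.28 against control 3 alone.

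Prkca, the classical calcium-dependent alpha isoform, read 5.66, 5.42 and 5.33 in controls and 5.33, 5.34 and 5.06 with GnRH, with a difference of -0.22 ± 0.12 (limma adjusted p = 0.464). Prkcb, the classical beta isoform, read 7.76, 7.86 and 8.74 in controls and 8.07, 8.61 and 8.41 with GnRH. Control 3 was the highest of all arrays, 0.93 above the mean of controls 1 and 2, and the GnRH arrays were spread between them. Prkcb had the widest interval of the 32 genes, -0.27 to 0.76 around a difference of 0.25 (limma adjusted p = 0.702). Prkce, the epsilon isoform, which also needs no calcium, had a difference of 0.11 ± 0.087 (limma adjusted p = 0.639).

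Among the tyrosine kinases, Src had the smallest p-value of the 32 genes. Src is the founding member of the non-receptor tyrosine kinases and links the GnRH receptor and protein kinase C to the ERK cascade. Its log2 values were 6.70, 6.76 and 6.57 in controls 1 to 3 and 6.91, 7.20 and 6.96 in GnRH samples 1 to 3. All GnRH arrays lay above all controls, with GnRH 2 the highest. The difference was 0.35 ± 0.10 (SE), or 1.27-fold, with a 95% interval from 0.12 to 0.57 (limma adjusted p = 0.217). With groups that do not overlap, the sign has to be the same with either kind of control. The difference was 0.29 against controls 1 and 2, without passing (limma adjusted p = 0.108), and 0.45 against control 3 alone.

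Ptk2b encodes Pyk2, a calcium-sensitive tyrosine kinase that works beside Src. It read 7.53, 7.59 and 8.13 in controls and 7.93, 7.80 and 8.03 with GnRH. The GnRH arrays lay between the low controls 1 and 2 and the high control 3. The log2 difference was 0.17 ± 0.15 (limma adjusted p = 0.675).

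In the MAP kinase cascade, 0 of 7 genes passed and 2 (28.6%) had groups that did not overlap, both with higher values under GnRH. Among all probe sets 16.7% had no overlap, 7.06% with higher values under GnRH. With only 7 genes, the difference between these shares was not tested. Mapk14, which encodes the p38 alpha kinase, read 9.21, 9.21 and 9.21 in the controls and 9.42, 9.32 and 9.54 with GnRH. The controls were the same to the second decimal and every GnRH array was above them, by a mean of 0.22 ± 0.089 or 1.16-fold (limma adjusted p = 0.368). Map2k2, encoding MEK2, which activates ERK, read 7.67, 7.73 and 7.30 in controls and 7.83, 7.89 and 7.81 with GnRH. Control 3 was the lowest array and the GnRH arrays were close together, so that the difference of 0.28 ± 0.12 (limma adjusted p = 0.376) was 0.14 against controls 1 and 2 and 0.54 against control 3 alone.

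The paralogue of Map2k2 did not share its direction. Map2k1, encoding MEK1, read 8.97, 9.22 and 9.19 in controls and 8.96, 8.87 and 9.11 with GnRH, a log2 difference of -0.15 ± 0.10 (limma adjusted p = 0.593). The difference between the responses of Map2k1 and Map2k2 was not tested. Map2k6, encoding MKK6, a kinase that activates p38, had the widest spread in the cascade within both groups, with 5.63, 5.46 and 5.12 in controls and 5.41, 5.21 and 4.77 with GnRH. GnRH 3 was the lowest array and the groups overlapped, with a difference of -0.27 ± 0.17 (limma adjusted p = 0.551).

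None of the JNK arm genes passed. Mapk8, encoding JNK1, ranged from 7.30 to 7.41 over the 6 arrays, with a log2 difference of -0.051 and a 95% interval from -0.23 to 0.13. Its other 3 probe sets had larger differences, -0.16, -0.17 and -0.17, and in the last 2 of these all GnRH arrays lay below all controls, without passing (limma adjusted p = 0.438 and 0.483). The last, 1392418_at, read only 2.59 to 2.90 over the 6 arrays, far below the array medians. At that level a difference says little about the transcript. The mean of the Mapk8 probe sets, with this dim one included, differed by -0.14. Mapk9, encoding JNK2, had -0.035 (-0.24 to 0.17). Map3k1, encoding MEKK1 at the top of the JNK cascade, had -0.00084 (-0.21 to 0.21). The limma adjusted p-values of these genes on their brightest probe sets ran from 0.831 to 0.998, and there the groups overlapped.

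**Figure D2:**
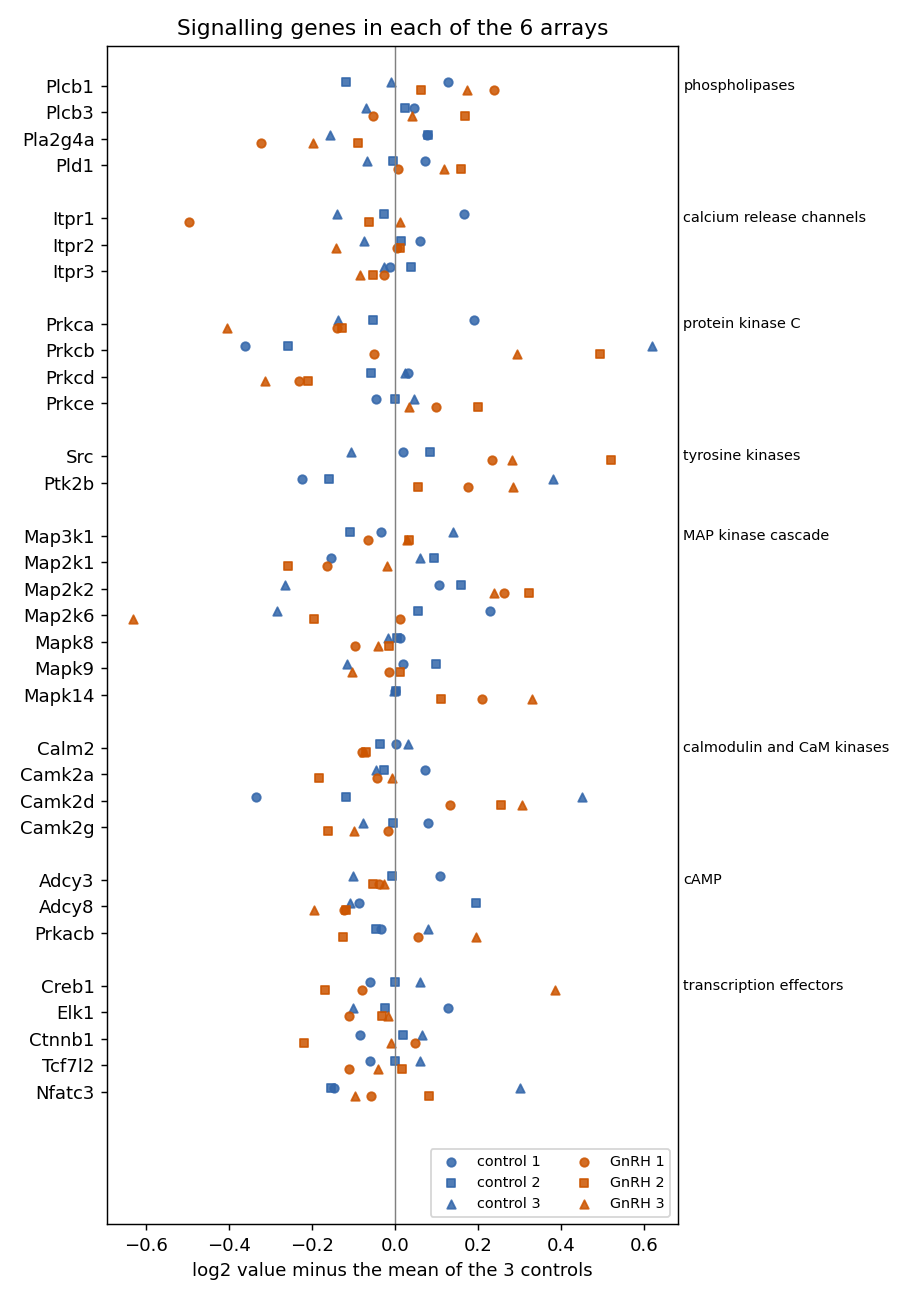
Log2 value of each of the 32 signalling genes in each array, minus the mean of the 3 controls (x axis), with controls in blue, GnRH samples in orange and the symbol giving the replicate number. The groups do not overlap in Src, Map2k2 and Mapk14 (GnRH higher) and in Prkcd, Calm2 and Adcy8 (GnRH lower), while control 3 lies at the top in Prkcb, Ptk2b, Camk2d and Nfatc3.

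Calmodulin and the calcium/calmodulin-dependent kinases carry the calcium signal onward. Calm2, a calmodulin gene, read 10.20, 10.16 and 10.23 in controls and 10.12, 10.13 and 10.12 with GnRH. The GnRH arrays were all just below the controls, yet the difference of -0.074 ± 0.081 was no larger than its SE (limma adjusted p = 0.745). Camk2d, the delta subunit of CaM kinase II, read 7.17, 7.39 and 7.96 in controls and 7.64, 7.76 and 7.81 with GnRH. As in Ptk2b and Prkcb, the GnRH arrays lay above controls 1 and 2 and below control 3, with a difference of 0.23 ± 0.17 (limma adjusted p = 0.612). The alpha and gamma subunits, Camk2a and Camk2g, had -0.078 and -0.092, with overlapping groups and limma adjusted p-values of 0.757 and 0.708.

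The cAMP genes gave 0 calls among 3. Adcy8, a calcium-stimulated adenylyl cyclase, read 3.86, 4.14 and 3.83 in controls and 3.82, 3.82 and 3.75 with GnRH. These values lay far below the array medians of 6.01 to 6.07, near the 3.91 and 3.66 of Xist in controls 1 and 2. At that level a difference says little about the transcript. The groups did not overlap, but controls 1 and 3 were only just above the GnRH arrays, and the difference was -0.15 ± 0.10 (limma adjusted p = 0.594). Adcy3, another cyclase, had -0.040 (-0.24 to 0.16) and Prkacb, a catalytic subunit of protein kinase A, 0.041 (-0.18 to 0.27), as log2 differences with 95% intervals.

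The 5 transcription effectors had log2 differences from -0.061 to 0.046, and none passed. Creb1, the factor activated by cAMP and calcium, read 6.47, 6.53 and 6.59 in controls and 6.45, 6.36 and 6.92 with GnRH. GnRH 3 was the highest array and GnRH 2 the lowest, so the spread lay inside the treated group. Nfatc3, a calcineurin-dependent factor, read 7.38, 7.38 and 7.83 in controls and 7.47, 7.61 and 7.43 with GnRH, with control 3 above the other 5 arrays. Elk1, the ERK-activated ETS factor, had a log2 difference of -0.053. Ctnnb1 (beta-catenin) and Tcf7l2, its DNA-binding partner, had -0.061 and -0.045. The limma adjusted p-values of the 5 genes ran from 0.838 to 0.957.

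Across all roles the groups did not overlap in 6 of the 32 genes, 3 with higher and 3 with lower values under GnRH. That is 18.8% against 17.3% of all named genes and 16.7% of all probe sets (7.06% higher, 9.62% lower), again at the background.

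Control 3 stood apart from the other arrays in several of these genes, at shares not far from those of all named genes. Control 3 lay outside the range of the other 5 arrays in 15 of the 32 genes (46.9%, against 42.5% of all named genes). Its distance from the mean of controls 1 and 2 was largest in Prkcb (0.93), Camk2d (0.68), Ptk2b (0.57), Nfatc3 (0.45) and Map2k6 (-0.43), all as log2 differences. A distance over 0.4, a bound chosen after the values were seen, occurred in these 5 genes (15.6%) and in 11.6% of all named genes. The difference between these shares was not tested.

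Without control 3, 3 of the 32 genes passed, all higher with GnRH: Prkcb by 0.55, Camk2d by 0.46 and Ptk2b by 0.36 on the log2 scale (limma adjusted p = 0.0374, 0.0223 and 0.0439). That is 9.38% of the genes, where 8.45% of all named genes and 7.44% of all probe sets passed. Of all probe sets, 4.95% passed higher and 2.49% lower, 2309 in total. Against control 3 alone, with its spread assumed to be that of the GnRH arrays, the same genes had -0.37, -0.22 and -0.21, the opposite sign, without passing (limma adjusted p = 0.514, 0.563 and 0.614), and 0 of the 32 passed, where 0.854% of all probe sets did. Hormone and sex-linked class cannot be told apart in these 3 calls.

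With array weights from limma, which gave control 3 the lowest weight, 0 of the 32 passed, where 9.73% of all probe sets did.

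The 4 genes with an unadjusted p under 0.05, Src, Mapk14, Map2k2 and Prkcd, had differences of one sign from either kind of control. This sign was fixed in advance, since their groups do not overlap, and it adds nothing to the main test. Mapk14 had 0.22 against controls 1 and 2 and 0.22 against control 3, the closest pair of values among the 4. None of these contrasts passed (limma adjusted p from 0.0692 to 0.588 for the 4 genes). Without control 3, the 29 genes that did not pass ran from -0.41 (Map2k6) to 0.29 (Src) on the log2 scale.

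**Figure D3:**
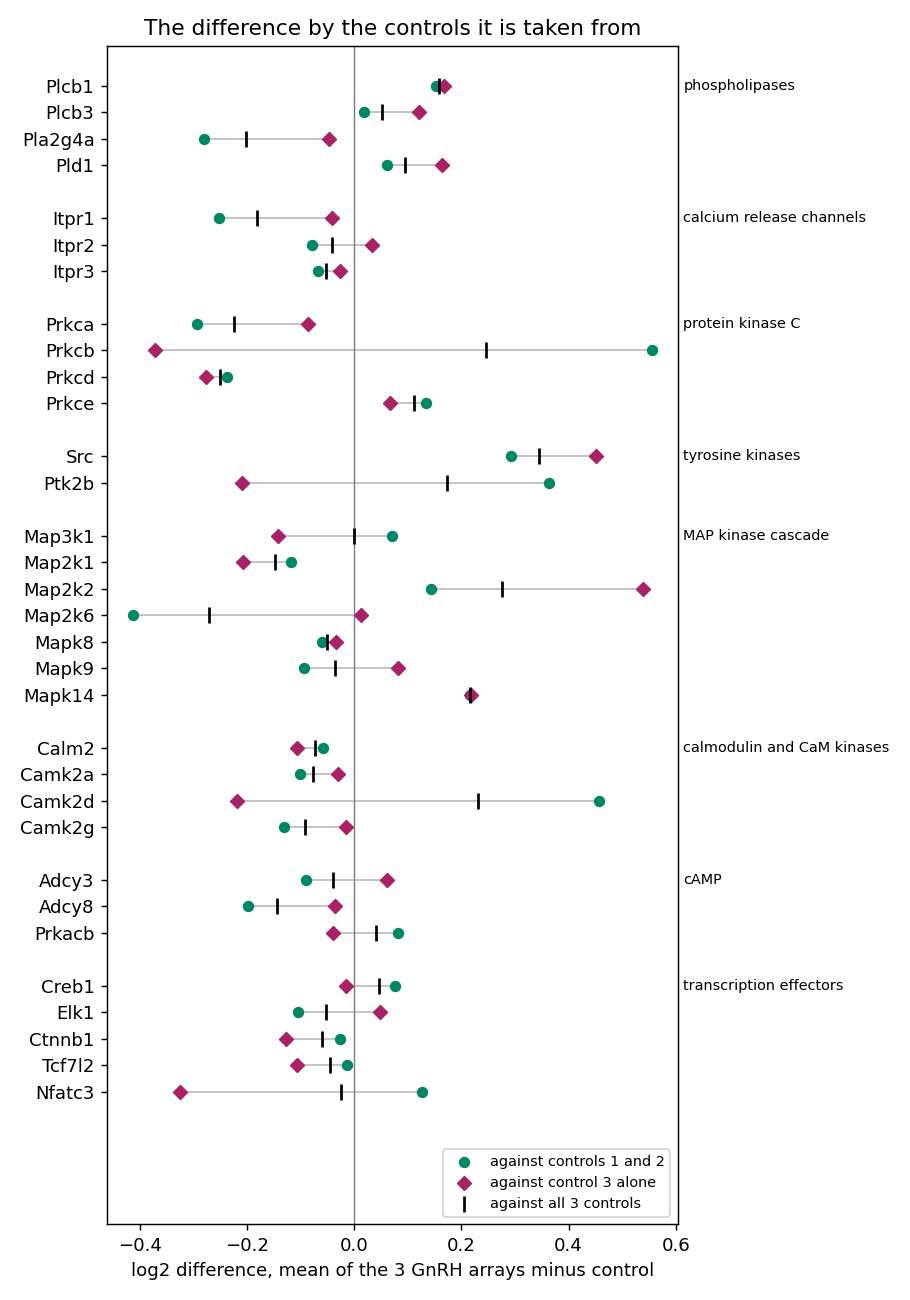
Mean of the 3 GnRH arrays minus control on the log2 scale (x axis) for each of the 32 genes, taken from controls 1 and 2 (circles), from control 3 alone (diamonds) and from all 3 controls (bars). The circle and the diamond lie on opposite sides of 0 in Prkcb, Camk2d, Ptk2b and Nfatc3 among others. They lie on one side in Src, Mapk14, Map2k2 and Prkcd, as they must where the groups do not overlap.

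More than one probe set was present for 15 of the 32 genes, up to 5 for Pld1 and Tcf7l2. Over all 66 probe sets 0 passed, with the smallest limma adjusted p at 0.0846, and 9 (13.6%) had an unadjusted p under 0.05. In 7 of the 15 genes all probe sets had one sign: above 0 in Src, Prkcb and Prkacb, below 0 in Mapk8, Itpr2, Camk2g and Tcf7l2. In the other 8 the probe sets differed in sign. The sign says little where a probe set is dim or its difference is near 0. Of the 34 probe sets that were not the brightest of their gene, 21 had means under the median of all probe sets. Prkcb 1397189_at, for example, read 3.69 to 4.15, and the smallest Tcf7l2 difference was -0.00010. Probe sets of a gene can read different transcript ends or splice forms, which the annotation used here does not describe. The Ptk2b and Gnas probe sets end in _s_at, the manufacturer's mark for probes that several transcripts share.

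The probe set with the smallest p of all 66 belonged to Camk2d. This one, 1371263_a_at, read 5.07, 5.11 and 5.16 in controls and 5.46, 5.49 and 5.54 with GnRH. Here control 3 was with the other controls and all GnRH arrays lay above, by 0.39 ± 0.083 or 1.31-fold (limma adjusted p = 0.0846). The difference was 0.41 against controls 1 and 2, which passed (limma adjusted p = 0.0177), and 0.34 against control 3 alone, which did not (0.261). The remaining Camk2d probe set, 1368833_at, had -0.093 ± 0.084, so the gene as a whole showed no single direction.

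Itpr2 and Src showed how far a size depended on the probe set. The dimmer Itpr2 probe set, 1369675_at, read 6.31, 6.12 and 5.91 in controls and 5.86, 5.69 and 5.61 with GnRH, all GnRH arrays below all controls. Its difference was -0.39 ± 0.12 (limma adjusted p = 0.217), against -0.042 on the brighter one. Without control 3 it passed, at -0.49 (limma adjusted p = 0.0204), with -0.19 against control 3 alone. Of all 66 probe sets, 7 (10.6%) passed without control 3, where 7.44% of all probe sets did: those of Prkcb (2), Camk2d (2), Ptk2b, Itpr2 and Camk2a. For Src the brightest probe set gave 0.35 and the others 0.19, 0.063 and 0.048, all above 0. The mean of the Src probe sets differed by 0.16 (limma adjusted p = 0.631).

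**Figure D4:**
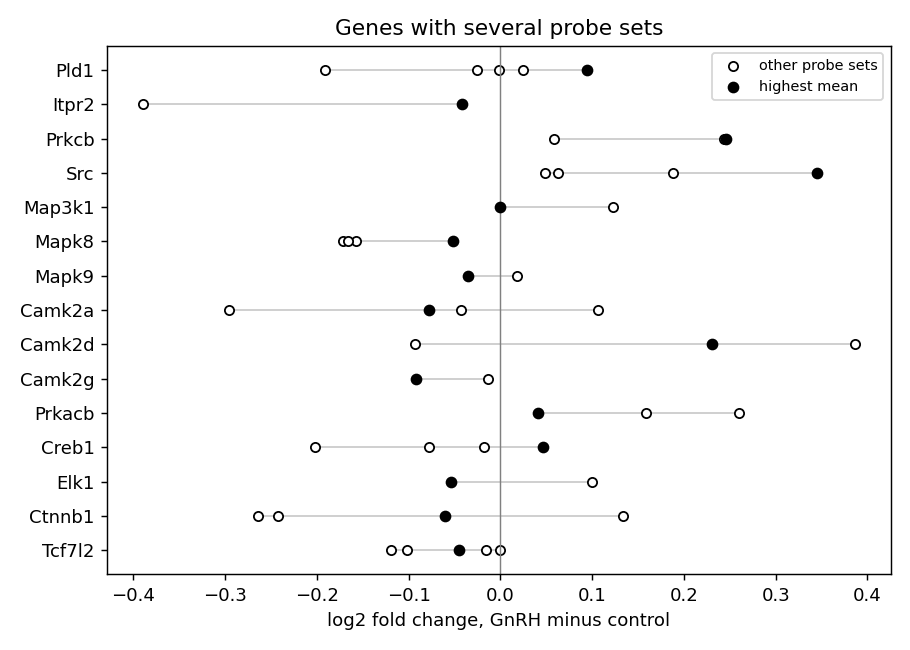
Log2 fold change (x axis, GnRH minus control) of every probe set of the 15 signalling genes that have several, with the probe set of highest mean filled and the others open. The values run from -0.39 in Itpr2 to 0.39 in Camk2d, and in 8 genes they lie on both sides of 0.

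Of 74 further genes listed for the GnRH pathway (G proteins, other isoforms of the same enzymes, Ras and MAP kinase components, calcineurin, transcription cofactors), 59 were measured, and 0 passed the test in either direction (34 above 0, 25 below). At an unadjusted p under 0.05 there were 8 (13.6%), 5 higher and 3 lower, against 12.3% of all probe sets and 13.2% of all named genes. The median log2 fold change was 0.023. The groups did not overlap in 18.6% of the 59 genes (5 higher, 6 lower), against 16.7% of all probe sets and 17.3% of all named genes, so at the background. The 4 with the smallest p-values were Hbegf, Prkaca, Gnas and Adcy6. In each the groups did not overlap, which the choice by p in this same contrast favours.

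Hbegf encodes heparin-binding EGF-like growth factor, whose release from the cell surface links GnRH signalling to the EGF receptor. It read 7.18, 7.07 and 6.52 in controls and 6.34, 6.10 and 6.17 with GnRH. Control 3 lay between the other controls and the GnRH arrays, and the difference was -0.72 ± 0.16, or 1.65-fold lower (limma adjusted p = 0.0883). Against controls 1 and 2 it was -0.92 (limma adjusted p = 0.000849) and against control 3 alone -0.32 (0.382).

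The other 3 are components of the cAMP arm. Prkaca, the main catalytic subunit of protein kinase A, read 8.04, 8.07 and 7.99 in controls and 8.36, 8.39 and 8.48 with GnRH, a difference of 0.38 ± 0.084 (limma adjusted p = 0.0991). Gnas, which encodes the stimulatory G protein alpha subunit, read 12.89, 13.01 and 12.88 in controls and 13.37, 13.16 and 13.37 with GnRH, a difference of 0.37 ± 0.094 (limma adjusted p = 0.141). These Gnas values are from the brightest of 3 probe sets, and the size depended on the processing. Over the 15 alternatives the Gnas difference ran from 0.13 to 0.44. Adcy6, an adenylyl cyclase, read 8.51, 8.60 and 8.71 in controls and 8.96, 8.89 and 9.00 with GnRH, a difference of 0.34 ± 0.090 (limma adjusted p = 0.156). In these 3 genes all GnRH arrays lay above all controls, control 3 included, at 1.27-fold to 1.30-fold. The remaining cAMP genes of the list went both ways. Adcy9 had -0.20, with all GnRH arrays below all controls. Prkar1a had -0.15, Adcy2 -0.11, Adcy5 -0.029 and Adcy4 -0.020, while Prkar2b had 0.38, all with overlapping groups. Among the 32 genes, the related Prkacb had 0.041 on its brightest probe set and 0.16 and 0.26 on the others, and the cyclases Adcy3 and Adcy8 had -0.040 and -0.15. Whether the paralogues differ was not tested. Without control 3, 5 of the 59 passed, Prkaca, Adcy6, Prkar2b and Prkcz higher and Hbegf lower. That is 8.47%, where 8.45% of all named genes and 7.44% of all probe sets passed. With array weights 6 of the 59 passed, where 9.73% of all probe sets did. Against control 3 alone Prkcz had -0.0021 and Prkar2b 0.078 (limma adjusted p = 0.998 and 0.91), where Prkaca had 0.42 and Adcy6 0.24 (limma adjusted p = 0.165 and 0.483), and none of these passed. With array weights the 6 genes were the 5 that passed without control 3 and Gnas. Prkcz and the remaining cAMP genes of the list, as Xist and Eif2s3y above, were named after their values were seen.

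**Figure D5:**
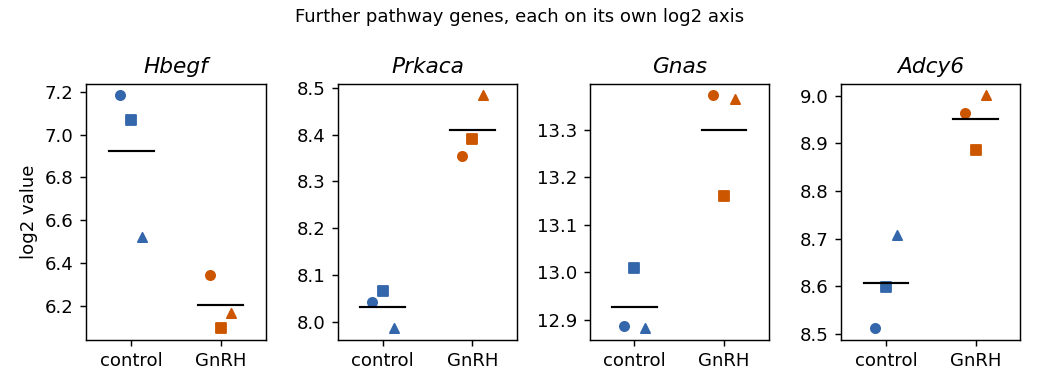
Log2 value in each array (y axis, a separate scale per gene that does not start at 0) of the 4 further pathway genes with the smallest p-values, with controls in blue, GnRH samples in orange, symbols for the replicate number and lines for the group mean. The groups do not overlap in any of the 4, with Hbegf lower and Prkaca, Gnas and Adcy6 higher with GnRH, and none passed the test.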

How the data were processed

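Each deposited value is an array intensity on a linear scale for 1 probe set, produced with RMA (which combines the probes of a probe set after background removal and normalization) per the submitters' processing notes; its software, version and filters were not given in these sources. The table held 31042 probe sets, 0 missing values and no detection calls. Of these, 20826 had 1 gene symbol in the array annotation, updated by gene identifier against the GRCr8 gene table, and 436 had several and were not named.

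The deposited values were turned into log2 values without a pseudocount. The groups were tested against each other by limma (version 3.58.1, R 4.3.3; lmFit, eBayes, 2-sided, no covariate, no filter), with Benjamini-Hochberg adjustment over all probe sets and a threshold of 0.05. The test was tried on simulated data. Named were all 32 genes, and of a list of 74 further pathway genes those past the threshold and otherwise the 4 with the smallest p-values. Alternatives tried were other normalizations, a filter on dim probe sets, a pseudocount, other variance models, array weights, a block for same-numbered arrays, leaving out single arrays, control 3 as the lone control, and means over probe sets. The genes and lists were chosen with earlier results of these data known. The number of arrays, 3 a group, limits the precision.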

Additional observations from a re-analysis of the deposited data

How the results depend on the processing

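The number of the 32 signalling genes past the threshold was 0 under 14 of the 15 alternatives, and 0 to 3 over the fits without 1 array, the 3 being Prkcb, Ptk2b and Camk2d without control 3. For the 59 further pathway genes it was 6 with array weights, 1 with the replicate number as a block (Hbegf), 0 to 5 without 1 array (5 without control 3) and 0 otherwise. Over all probe sets it was 144, and 3020 with array weights, 265 against control 3 alone (a contrast added once the data had been seen), 74 with 16 added to each value and 90 with repeated quantile normalization. Without 1 array it ran from 20 to 2309: 69, 28 and 2309 without controls 1, 2 and 3, and 51, 20 and 65 without GnRH 1, 2 and 3. With the replicate block it was 215. Same-numbered samples had correlations of 0.16, -0.049 and 0.16 between their deviations from the group means. With 3 arrays a group, and control 3 apart from the other controls, these values cannot show whether samples were paired. No label states a pairing, and the block called none of the 32 genes.

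The difference changed sign under at least 1 alternative in 15 of the 32 genes, with differences over all 6 arrays of up to 0.27 in size, in no case past the threshold. Against control 3 alone these were Itpr2 (0.034), Prkcb (-0.37), Ptk2b (-0.21), Map2k6 (0.013), Mapk9 (0.082), Camk2d (-0.22), Adcy3 (0.062), Prkacb (-0.040), Creb1 (-0.015) and Elk1 (0.048), and Lhb, the LH beta subunit gene, also turned there (-0.045). With the mean of all probe sets they were Pld1 (-0.020), Map3k1 (0.061), Creb1 (-0.063) and Elk1 (0.023); with array weights Map3k1 (0.063) and Nfatc3 (0.088); with median centring Map3k1 (0.016); and with quantile normalization Prkacb (-0.032). Over the fits without 1 array, the differences that changed sign ran -0.0054 to 0.10 for Plcb3, -0.080 to 0.0084 for Itpr2, -0.054 to 0.070 for Map3k1, -0.094 to 0.014 for Mapk9, -0.090 to 0.014 for Adcy3, -0.036 to 0.12 for Prkacb, -0.12 to 0.15 for Creb1, -0.10 to 0.0099 for Elk1, -0.12 to 0.019 for Ctnnb1 and -0.10 to 0.13 for Nfatc3. Src ran 0.26 to 0.40, Mapk14 0.16 to 0.27 and Prkcd -0.28 to -0.22 there. The filter on dim probe sets left out 6 of the 32 genes, Pla2g4a, Prkca, Map2k6, Camk2a, Adcy8 and Elk1. Gnrhr lost its call against control 3 alone, with 16 added to each value and without control 1, control 2, GnRH 2 or GnRH 3. Lhb had 0.34 ± 0.16 over all 6 arrays, with overlapping groups and no call (limma adjusted p = 0.425). Without control 3, where hormone and sex cannot be told apart, Lhb had 0.53 and passed (limma adjusted p = 0.0192). The cause of these shifts was not tested.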

Other observations

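Ctnnb1, which encodes beta-catenin, had a pair of probe sets that separated the groups in opposite directions, singled out after their values were seen. Probe set 1373067_at read 10.86, 10.92 and 11.05 in controls and 10.80, 10.47 and 10.77 with GnRH, a log2 difference of -0.26 ± 0.11 (limma adjusted p = 0.369). Probe set 1369733_at read 8.52, 8.72 and 8.76 in controls and 8.77, 8.78 and 8.85 with GnRH, a difference of 0.13 ± 0.093 (limma adjusted p = 0.593). Neither passed the test, and the opposition was not tested. Against control 3 alone the differences were -0.37 and 0.044.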
